A study of Drosophila melanogaster with 2 samples.

Results

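The genes described here are daughterless (da, FBgn0267821) and extra macrochaetae (emc, FBgn0000575), 2 of the 13945 protein-coding genes annotated on the 6 main chromosome arms of Drosophila melanogaster. They were taken by name, as the dimerisation partner and the antagonist of the proneural proteins, and each peak with its summit in the gene body or within 5 kb of it was followed through 8 peak lists. The lists come from chromatin immunoprecipitation sequencing (ChIP-seq) of whole embryos aged 0 to 18 h from transgenic flies with an insertion that makes an Amos-eGFP protein. Sonicated chromatin (pieces of 200 to 800 bp) was precipitated with an antibody against GFP, in 2 biological replicates of 1 group. Both replicates carry the same transgene and stage range, no untagged or input library was analysed here, and a whole embryo mixes the cells that express the fusion with those that do not. With 1 group there was no contrast to test, so the counts of peaks and motifs are described beside shares over all genes or all peaks.

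Amos, Atonal and the Achaete-Scute proteins are basic helix-loop-helix (bHLH) transcription factors that give cells of the ectoderm a neural fate. Each pairs with Daughterless, the broadly expressed fly E protein, and the dimer binds the E-box, CANNTG. Extra macrochaetae has the helix-loop-helix part without a basic region, so its dimers with Daughterless or a proneural protein cannot bind DNA. Daughterless also acts in sex determination, where it pairs with Scute to switch on Sxl.

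At da the optimal list, the larger of the thresholded lists made from pooled reads, held 3 peaks, and at emc it held 2. The strongest peak of each gene lay at its own promoter. At da its summit was at position -38 from the only annotated transcription start site (TSS), and at emc at position 53 downstream of it. The strongest peaks stood 33.9% from the top of the list at da and 37.5% from the top at emc. Replicate 1 held both promoter peaks in its thresholded list and replicate 2 held neither. Within the da domain replicate 2 listed no region of any strength, whereas at the emc promoter it listed a region that missed the threshold.

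The sequences under the peaks are printed here because they hold the motif matches described further on. For the promoter peaks of emc and Cnot4 the printed stretch ends before the summit, which lies in the 5′ UTR. They are the plus strand of Release 6 (dm6) from RefSeq, 5′ to 3′, and both genes are on the plus strand. Capitals mark E-boxes and matches to CGATAG, TATCGATA and GAGAGAG on either strand, so CGATAG read on the other strand appears as CTATCG and GAGAGAG as CTCTCTC.
da promoter peak, whole, chr2L:10387989-10388091: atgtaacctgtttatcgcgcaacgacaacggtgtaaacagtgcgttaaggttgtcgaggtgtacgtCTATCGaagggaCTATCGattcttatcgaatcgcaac
da TSS, 30 bases, chr2L:10388090-10388119: acgctaCAGATGacgcacgaagagaacaaa
da downstream peak, 50 bp to each side of the summit, chr2L:10393628-10393728: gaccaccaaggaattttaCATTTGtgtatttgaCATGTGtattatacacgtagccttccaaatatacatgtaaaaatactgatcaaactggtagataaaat
Cnot4 TSS under the outermost da-domain peak, 30 bases, chr2L:10396701-10396730: ttcgcttgctatTATCGATAGtttgagctg
emc promoter peak, the part before the TSS, chr3L:749273-749399: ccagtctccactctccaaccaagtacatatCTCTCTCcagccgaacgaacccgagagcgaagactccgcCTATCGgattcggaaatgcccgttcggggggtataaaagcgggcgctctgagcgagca
emc intron peak, 50 bp to each side of the summit, chr3L:750718-750818: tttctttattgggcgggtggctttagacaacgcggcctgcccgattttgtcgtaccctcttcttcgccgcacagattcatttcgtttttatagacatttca

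The optimal list held 5860 peaks and the conservative list 3116, both from pooled reads. Replicate 1 had 6214 thresholded peaks and replicate 2 had 2973. The 4 ranked lists behind them held 74473 to 132957 regions, and a thresholded list keeps those with a global irreproducible discovery rate (IDR) of 0.01 or less. Signal is the authors' value for a peak and its scale differs between lists, so places were taken within a list. The lists carry no read counts, so the depth of either library is unknown. A ranked list holds only regions matched between the inputs compared. A position with no region thus had no matched region, which is not the same as no signal. Which inputs were compared for each list is not established here, so a low global IDR is not read as agreement between the 2 replicates.

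The da gene spans chr2L:10388105-10393228 on the plus strand in 2 exons, with an intron of 1521 bp and 4 annotated transcripts that share 1 TSS. Its domain, the body and 5 kb to each side, covers 15.1 kb. Cdk1, the mitotic cyclin-dependent kinase, and mRpS7, a mitochondrial ribosomal protein gene that ends 453 bp before da, lie upstream. Mdh1, a malate dehydrogenase gene on the minus strand, has its 3′ end 546 bp past that of da, and Cnot4, a subunit gene of the CCR4-NOT complex, follows 3488 bp past it. Any peak between such close genes is near several of them.

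The da promoter peak covered chr2L:10387989-10388091, only 103 bp against a median width of 360 bp in the optimal list. Its summit at 10388067 was intergenic, and the nearest TSS of any annotated gene was that of da. It had signal 202 in the optimal list, where the median was 119, rank 1985, a q value of 0.00122 and a global IDR of 1e-05. Replicate 1 placed the summit on the identical base, in a peak of 146 bp with signal 134. Its rank was 1865 of 6214 (30.01% from the top), with a global IDR of 1e-05. The optimal list includes the reads of replicate 1, so the identical summit is not an independent observation. The conservative list, the replicate 2 list and the ranked lists behind them had no entry there. The low global IDR values of this peak are thus no evidence that the replicates agree there. The peak therefore ranked in the upper part of the lists that held it and was absent from the rest.

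A second da-domain peak covered chr2L:10393498-10393857, with its summit at 10393678, which is 450 bp past the end of da. The antisense RNA gene asRNA:CR45789, which overlaps the da 3′ end, has the nearest TSS of any kind, with the summit at position -244 from it, and the nearest protein-coding TSS is that of Mdh1, 2597 bp away. Its signal in the optimal list was 113, rank 3032 (51.7% from the top), with a global IDR of 0.000129. In replicate 1, whose reads the optimal list shares, the summit was again on the same base. Signal there was 55.9, at rank 4135 with a global IDR of 0.00102. It is the only peak of the da domain whose summit lies away from a coding TSS.

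The outermost peak, chr2L:10396555-10396914, had its summit at 10396735 in the 5′ UTR of Cnot4, 19 bp from the Cnot4 TSS and 8630 bp from that of da. Its signal in the optimal list was 118, rank 2958 (50.5% from the top), with a global IDR of 5.79e-05. Replicate 1 listed it at signal 82.9 with the summit moved by 2 bp. By position it belongs to Cnot4, and only the 5 kb rule assigns it to da. Counting peaks by their nearest protein-coding TSS left da with 1 peak, at its own promoter.

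Replicate 1 alone held 1 further peak in the da domain, at the Mdh1 promoter. Its summit at 10396256 was 19 bp from an Mdh1 TSS, with signal 34.8, rank 5689 (91.6% from the top) and a global IDR of 0.00208. In the ranked list behind the optimal list the matching region had a global IDR of 0.0108, just outside the threshold, with signal 34.3. All remaining regions of the da domain in these lists were weaker than that. Replicate 1 ranked 14 regions there, of which the 10 below the threshold had signals from 2.28 to 28.6, and 5 of those 10 had summits in the coding exon of da. The ranked list behind the optimal list had 12, of which 9 missed the threshold with signals from 6.11 to 34.3.

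**Figure D1:**
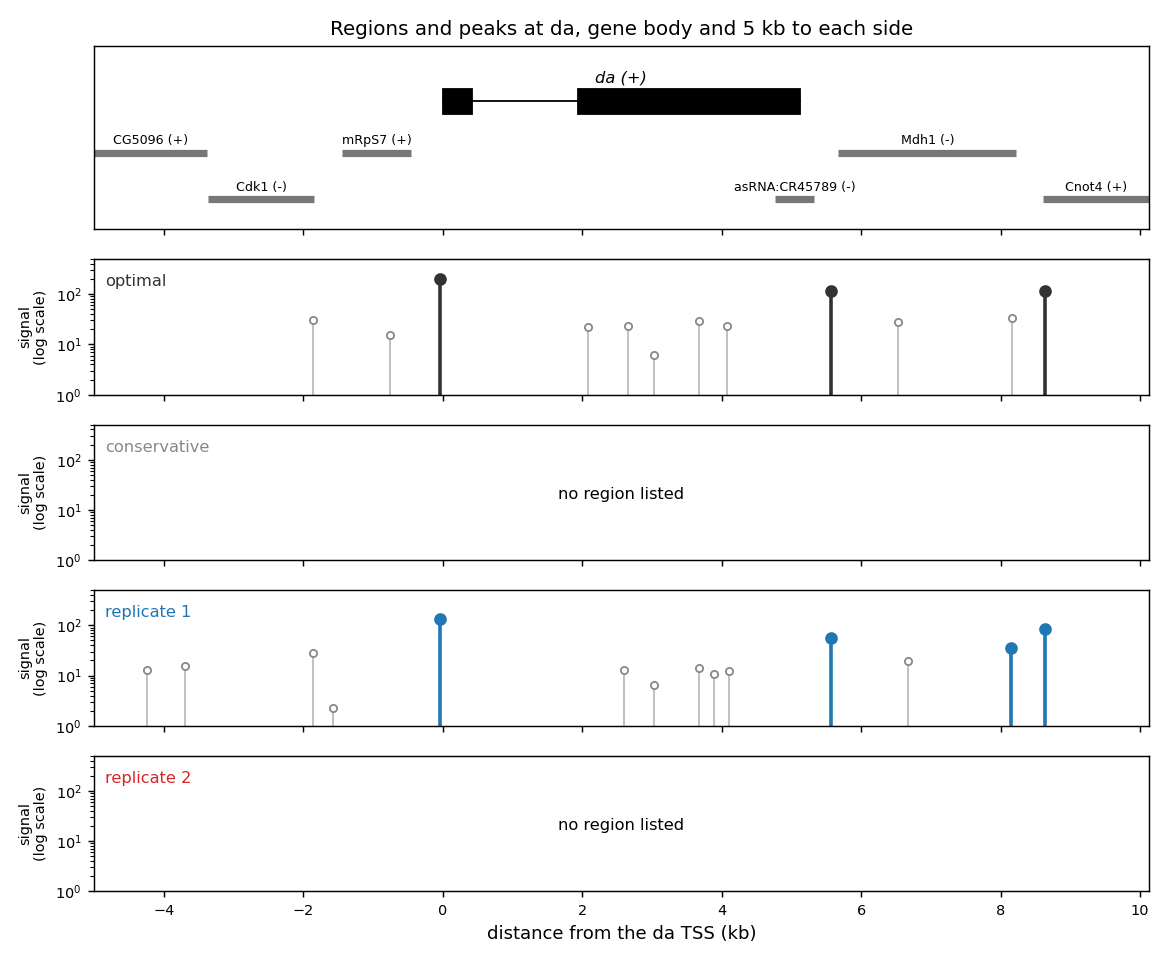
Signal (log scale) of listed regions against distance of their summit from the da TSS in kb, with the gene models above: filled points are peaks of the thresholded list, open points are regions only in the ranked list behind it. The optimal and replicate 1 lists share the summits at position -38, at 5573 bp and near 8630 bp, and the conservative and replicate 2 panels are empty; heights compare within a panel only.

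Replicate 2 and the ranked list behind the conservative list held 0 regions in the da domain. Across genes the median was 11 regions per domain in each replicate's ranked list. No region at all was found for 8.96% of protein-coding genes in the replicate 2 ranked list and for 3.51% in that of replicate 1. The empty stretch of replicate 2 ran well past da, over chr2L:10372432-10406009, or 33.6 kb, and held 11 whole protein-coding genes. Stretches at least as long numbered 211 in that list and took up 8.46% of the main arms. In the same stretch replicate 1 ranked 30 regions, 10 of them in its thresholded list, with signals up to 332, and the optimal list held 5 peaks with signals up to 424.

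Outside the empty stretch the replicates differed on some sides of da and not on others. Within 60 kb to each side of the da TSS replicate 1 ranked 100 regions and replicate 2 ranked 32, although over the genome the replicate 2 list was the longer, with 102867 regions against 74473. In the 5 kb bins from -15 kb to 15 kb replicate 1 had 3 to 5 regions each and replicate 2 had 0. From -40 to -15 kb the counts were close, 23 in replicate 1 and 22 in replicate 2. They were 12 and 1 from -60 to -40 kb, and 39 and 9 from 15 to 60 kb.

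**Figure D2:**
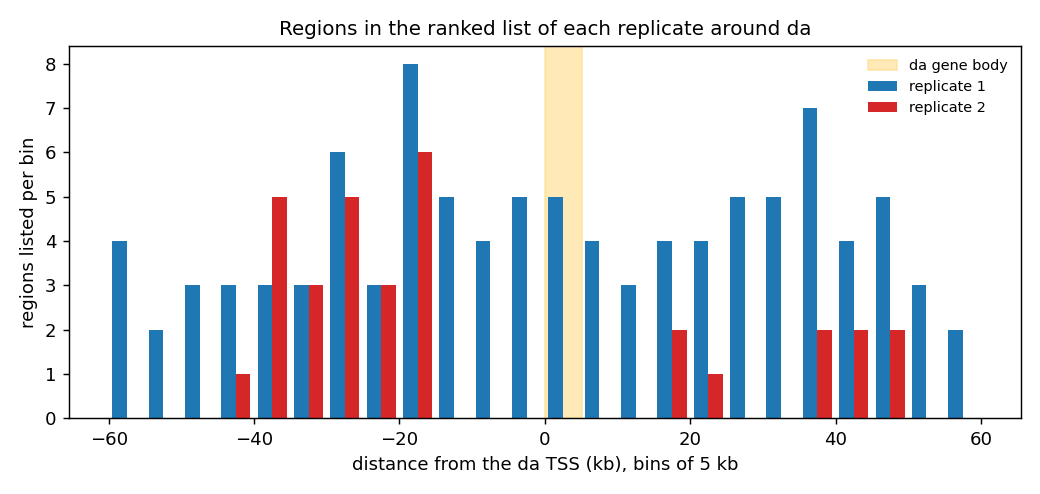
Number of regions in the ranked list of each replicate per 5 kb bin, against distance from the da TSS in kb, with the da gene body shaded. Replicate 1 has regions in every bin. Replicate 2 has none in the 6 bins around da between -15 and 15 kb, and none in several bins farther out on both sides.

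The emc gene spans chr3L:749400-753492 on the plus strand, with 2 exons, an intron of 2044 bp and 1 annotated transcript, whose coding sequence starts at 749664. It lies whole inside hng3, a gene on the minus strand that reaches from 737680 to 755489, so each emc peak is also intronic to hng3. The domain covers 14.1 kb, and hng3 is the only other annotated protein-coding gene in it, with a TSS 6089 bp from that of emc. The neighbourhood of da is more crowded.

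The emc promoter peak covered chr3L:749273-749632 with its summit at 749453, in the 5′ UTR of emc at position 53 from the TSS. In the optimal list it had signal 177, rank 2199, a q value of 0.00110 and a global IDR of 2.85e-05. The conservative list held the same region at rank 1921 of 3116 (61.6% from the top), with a global IDR of 0.00160. Replicate 1 had a narrower peak of 149 bp, chr3L:749346-749494, with its summit at 749434, which is position 34 from the TSS. Its signal there was 148, rank 1731 (27.9% from the top), with a global IDR of 1e-05. The emc peak thus had a place close to that of the da peak in the optimal and replicate 1 lists, and unlike the da peak it was in the conservative list.

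Replicate 2 had no thresholded peak in the emc domain. Its ranked list had a region at the promoter with the summit at 749587, 134 bp downstream of the optimal summit and 187 bp from the TSS, still in the 5′ UTR. This region had signal 33.3 and rank 3520 of 102867 (3.42% from the top), with a q value of 0.101 and a global IDR of 0.0238, outside the 0.01 threshold. It was the strongest of the 19 regions that replicate 2 ranked in the emc domain, and the weakest had signal 3.47. The nearest thresholded replicate 2 peak lay beyond the domain, at the initiator methionine tRNA gene tRNA:iMet-CAT-1-3, with signal 37.7, rank 2715 of 2973 and its summit at position -5660 from the emc TSS.

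The other emc peak covered chr3L:750588-750947 in the emc intron, with its summit at 750768, 1368 bp from the TSS. It had signal 58.7 in the optimal list, rank 4896 (83.5% from the top), a q value of 0.115 and a global IDR of 0.00664. It was the weakest of the 5 optimal-list peaks in the domains of both genes, and the only one of them that no replicate list and not the conservative list held. The conservative ranked list gave the same region a global IDR of 0.128. Replicate 1 ranked a region 2 bp away with signal 28.0 (11.8% from the top, global IDR 0.699), and replicate 2 one 21 bp away with signal 17.8 (16.5% from the top, global IDR 0.850). Both replicates listed a region in the intron, and in neither did it come near the threshold.

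**Figure D3:**
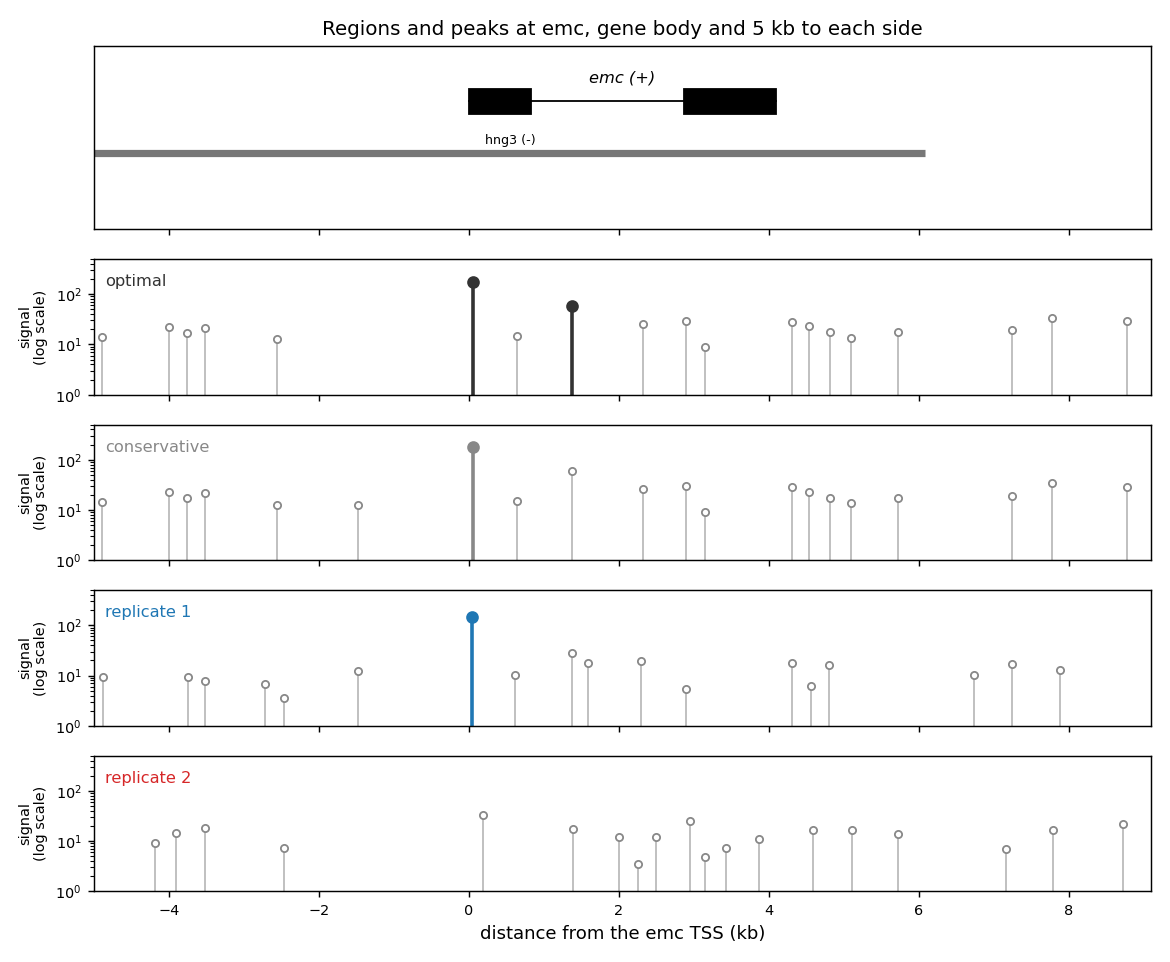
Signal (log scale) of listed regions against distance of their summit from the emc TSS in kb, with gene models above: filled points are peaks of the thresholded list, open points are regions only in the ranked list behind it. The promoter peak is filled in the optimal, conservative and replicate 1 panels, and in replicate 2 the highest point is open, at 187 bp with signal 33.3; heights compare within a panel only.

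A summit in the gene's domain was common among protein-coding genes. It was found for 64.7% of them in the optimal list, 48% in the conservative list, 66% in the replicate 1 list and 45.2% in the replicate 2 list. At least 3 optimal-list summits, as at da, were found for 19.9% of genes, and 2 or more for 40.3%. A summit within 500 bp of the gene's own TSS, as at both da and emc, was found for 37.3%. The pattern that da and emc share, a summit in the optimal and replicate 1 lists and none in the replicate 2 list, was found for 18% of genes. Each of these patterns was thus shared by many genes.

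By strength, da and emc stood below the middle of the genes that had a peak. The strongest peak was above that of da in 58.8% of the genes with an optimal-list summit and above that of emc in 62.9%, and the median strongest signal was 273. Of the 5 optimal-list peaks at da and emc, 4 overlapped a replicate 1 peak, where 82% of all optimal-list peaks on the main arms did. None of the 5 overlapped a replicate 2 peak, where 46.8% did, and 39.7% of all peaks overlapped both. A q value above 0.05 was found for 1 of the 5, the emc intron peak, and for 23.6% of all peaks.

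**Figure D4:**
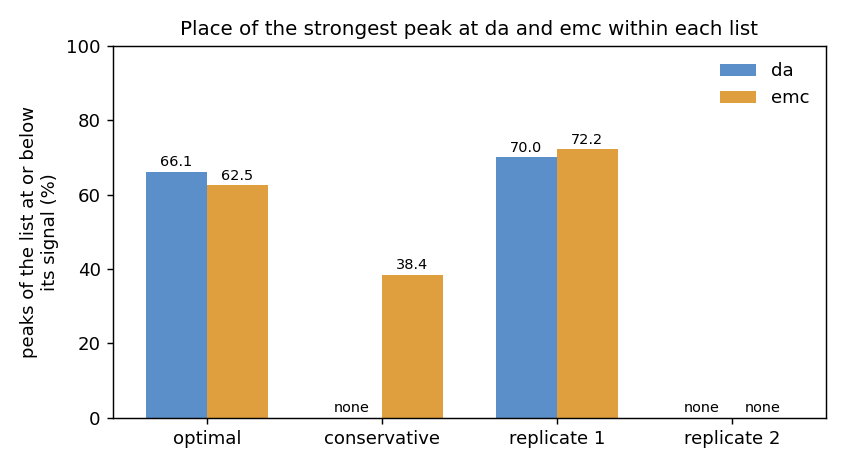
Place of the strongest peak in the da and emc domains within each thresholded list, as the percent of the list's peaks at or below its signal; the vertical axis starts at 0. The bars stand at 66.1 and 62.5 in the optimal list and 70.0 and 72.2 in the replicate 1 list, only emc has a bar in the conservative list (38.4), and neither gene has a peak in the replicate 2 list.

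The genes most like da and emc were found by the distance between their places in the 4 thresholded lists. The genes at distance 0 from da were CG5096, Cdk1 and mRpS7, which share its strongest peak because their domains overlap. Of genes with a different strongest peak the nearest were Rchy1, with signal 202 in the optimal list and 134 in replicate 1, and then CG12974 and ppl, which both had 207 and 134. For emc the nearest were CG3078, CG3091 and CG3191 on the X chromosome, with the same values for all of them, 178 in the optimal and conservative lists and 158 in replicate 1. Genes that share 1 strongest peak would have such identical values. These genes, like CG12974 and ppl, therefore need not be separate cases. The absence of a replicate 2 summit entered the distance as place 0, so these genes were chosen in part for lacking one.

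E-boxes, the sites bound by dimers of Daughterless with a proneural protein, were searched as CANNTG in the 101 bp centred on each summit. At the da promoter there was 1, of the hexamer class CAGATG, starting at position -9 from the TSS and 29 bp from the summit. It lay just outside the 103 bp peak itself, which ended at position -14 in the optimal list, and inside the 146 bp replicate 1 peak with the same summit. The downstream da peak had 2 E-boxes, starting 32 and 17 bp before the summit, of the classes CAAATG and CACATG. The peak at Cnot4 had 0 in the window and 1 in the whole peak. Over all optimal-list windows 40.4% held an E-box, 9.7% held 2 or more, and windows at all coding TSSs held at least 1 in 43.7% of cases.

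Neither emc peak had an E-box, in the 101 bp window or in the whole 360 bp peak. A window with 0 was found for 59.6% of all optimal-list summits, while 76.6% of whole peaks held at least 1. The emc domain as a whole was not poor in E-boxes. It held 106, or 7.52 per kb, against 5.15 per kb on arm 3L, and the da domain held 84, or 5.55 per kb, against 5.39 per kb on arm 2L. Among the regions ranked behind the optimal list, an E-box lay within 50 bp of the summit in 5 of 12 at da and 8 of 19 at emc, and in 43.3% over the main arms.

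The other motifs searched were CGATAG, TATCGATA (the DNA replication-related element, bound by Dref), GGTCACACT and GAGAGAG (bound by GAGA factor), on both strands; CGATAG and TATCGATA can overlap. The da promoter peak held 2 CGATAG matches, at positions -50 and -38 from the TSS, and the summit base was the first base of the second. At the Cnot4 TSS a CGATAG overlapped a TATCGATA. The emc promoter peak held 1 CGATAG, at position -58 from the TSS and position -111 from its summit, and 1 GAGAGAG at position -97. CGATAG lay in 25.7% of optimal-list windows, in 31.4% of those at promoters and in 9.81% of windows at coding TSSs. The emc match lay outside the window, and the share of whole peaks with a CGATAG was 33.4%.

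TATCGATA was in 13.7% of optimal-list windows, GGTCACACT in 3.59% and GAGAGAG in 1.99%. The emc GAGAGAG also lay outside the window, and 8.59% of whole peaks held that motif. The da and emc peaks had no GGTCACACT, and the emc intron peak had none of the motifs searched. A TATAAA, which was looked for after the emc sequence had been read, started at position -27 from the emc TSS. It was absent from the bases between 40 and 15 bp before the da TSS, and 6.8% of coding TSSs had it there.

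Other genes of the network were taken from 4 lists. Of 20 tissue-specific bHLH genes, whose products are partners of Daughterless or relatives of such partners, 10 had an optimal-list summit in their domain, 7 a conservative, 9 a replicate 1 and 7 a replicate 2 summit. Over all protein-coding genes the shares were 64.7%, 48%, 66% and 45.2% in that order. The proneural genes ac, sc, l(1)sc, ase and ato had 0 summits in each of these lists. In contrast, cato had 1 optimal-list summit with signal 142, which was 4741 bp from a cato TSS and nearer to that of CG7755. The 3 strongest were at Fer2 (signal 1442), sage (1413) and dimm (966), and each of those summits was nearer to the TSS of another gene, Mic26-27, Vps16A and Tsp39D. Only tx had its strongest summit within 500 bp of its own TSS, with signal 76.1, below the 202 of da and the 177 of emc. Any summit so placed, which is a wider measure, was found for 37.3% of all genes. The tagged gene, amos, had 2 optimal-list summits in its domain, 0 in replicate 1 and 1 in replicate 2. The stronger optimal-list summit had signal 62.8 and a q value of 0.0755. It was 4017 bp from an amos TSS and nearer to that of CG15160, 2013 bp away.

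Among 10 HLH repressors with their corepressor gro, many of which like emc oppose proneural activity, 8 had an optimal-list summit, 6 a conservative, 5 a replicate 1 and 7 a replicate 2 summit, beside 64.7%, 48%, 66% and 45.2% of all genes. The strongest, signal 359.6, was at the gro promoter and lay also in the domains of E(spl)m8-HLH and E(spl)m7-HLH. Of these genes 4 had their strongest summit within 500 bp of their own TSS, while 37.3% of all genes had any summit so placed. A stronger strongest peak than those of da and emc was found for 3. Those 3 are gro and the E(spl) genes that share its peak, so they rest on 1 peak. E(spl)m3-HLH and E(spl)m5-HLH also share their strongest peak (signal 76.9), nearest to the TSS of E(spl)m4-BFM. The 8 genes with a summit thus do not stand for 8 separate peaks.

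Of 10 genes of proneural regulation, 8 had an optimal-list summit, 8 a conservative, 7 a replicate 1 and 7 a replicate 2 summit, where all genes had the shares 64.7%, 48%, 66% and 45.2%. The strongest were Su(H), the transcription factor of Notch signalling, with signal 795 and its summit at position -22 from its own TSS, N (355) and chn (249). Delta, the Notch ligand, had signal 82.1, with no replicate 1 peak and 1 in replicate 2, the reverse of da and emc. Of 8 genes of sex determination, where Daughterless also acts, 5 had a summit in the optimal list, 5 in the conservative, 4 in replicate 1 and 5 in replicate 2, against those same shares of all genes. The strongest of them lay nearest to the TSS of other genes, at her (signal 1015, grp), Sxl (728, CG4615) and sisA (638, l(1)10Bb).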

How the data were processed

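ChIP-seq peak lists of 2 biological replicates of 1 group were used as deposited. Per the labels, the build is dm6. The sources used here name neither aligner nor peak caller. Each region's deposited signal is the authors' value, and the deposited lists give its q value as −log10 and its global IDR as a score, also −log10. Both were turned back into values. The score was exactly 5 for the da promoter peak in the optimal and replicate 1 lists, and for that of emc in replicate 1. Whether 5 is the highest score possible was not checked, so a global IDR of 1e-05 may be a limit. The optimal and conservative lists come from pooled reads and share reads with the replicate lists, so the lists are not independent. The 4 ranked lists also hold 32 columns of values per input that the files do not tie to a sample, and these were not used.

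Positions are 1-based, and genes and TSSs are from Ensembl release 115 on the Release 6 assembly. A peak was counted at a gene by its summit, in the gene body or within 5 kb. Overlap of peaks meant at least 1 bp. Motifs were matched exactly on both strands. Counts of summits in gene domains and of peaks overlapping a domain, the choice of the strongest peak and E-box matches were checked on simulated data. Places, overlaps between peaks of different lists and the other motifs were not. Python 3.11.15, numpy 2.4.6 and pandas 2.3.3 were used. Genes named besides da and emc are their neighbours and the 3 genes nearest in their places in the 4 thresholded lists. From each gene list up to 3 members with the highest signal are named. Genes whose TSS is nearest to a described summit are named too. The genes ac, sc, l(1)sc, ase, ato, cato, tx, amos, Delta, E(spl)m3-HLH and E(spl)m5-HLH were named after their values were seen. Delta is the annotation's symbol for Dl. The members, gene lists and motifs were chosen with earlier results of these data known. There was no test, since 1 group gives no contrast. Alternatives were the domain, the list, a q limit of 0.05, the motif window and leaving out each replicate.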

Additional observations from a re-analysis of the deposited data

How the results depend on the processing

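Of 49 alternative values, 36 stayed close to the reported value and 13 did not. Close means a count within 1.5 times, a place within the 95% Wilson interval or the identical distance. That interval treats the peaks of a list as independent draws. It served only as a tolerance and measures no spread between replicates or lists. The number of peaks at da, 3 in the optimal list, was 2 within 1 kb, 1 by nearest coding TSS, 0 in the conservative list, and 0 to 4 without each replicate in turn (0 without replicate 1, which leaves the replicate 2 list). The number at emc, 2, was 1 in the conservative list, 1 when the q value was limited to 0.05, and 0 to 1 without each replicate (0 without replicate 1). The place of the strongest peak from the top of its list was 30% at da without replicate 2. At emc it was 61.6% in the conservative list and 27.9% without replicate 2. The conservative entry at emc was the same region with the same signal, 177, placed within a shorter list of 3116 peaks. The emc summit was at position 34 without replicate 2. The E-boxes at the strongest da peak were 2 with 100 bp to each side and 0 in the whole optimal-list peak, since the E-box lies between the peak's end and the window's edge. For the strongest peak the conservative list gave no value at da, and leaving out replicate 1 gave none at either gene. No paired analysis was possible because there is 1 group. The lists hold no counts, so what depth limits at da and emc is unknown.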
